A study of Mus musculus with 27 samples.

Results

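Complement components and regulators were followed in the left ventricle of mice under pressure load. The genes were 7 named members of the system: C1qa, C1qb and C1qc, the chains of C1q, together with C3, C4b, Cfd and Serping1. All 7 had a line in the deposited messenger RNA table, which holds 8987 genes, and were taken by name. The mice were adult FVB animals, and 11 hearts gave a messenger RNA library: 2 caPI3Kalpha TAC, 2 caPI3Kalpha sham, 3 WT TAC and 4 WT sham. The caPI3Kalpha mice carry a permanently switched-on phosphoinositide 3-kinase alpha, and WT mice lack it. TAC, transverse aortic constriction, narrows the aorta so that the ventricle pumps against raised pressure, while a sham operation leaves the aorta unconstricted, and every ventricle was taken 7 days after surgery. The labels do not name the promoter of the transgene, and such lines are known to express it in cardiomyocytes. Whole ventricle was used, so a gene made by macrophages or fibroblasts is read against a background of muscle RNA.

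Complement is a cascade of plasma and tissue proteins that tags cells and debris for removal. C1q binds antibodies, dying cells and debris and starts the classical pathway, in which C4 and then C3 are cleaved and deposited. Factor D, the product of Cfd, is the protease of the alternative pathway that amplifies C3 cleavage, and C1 inhibitor, the product of Serping1, blocks the proteases that work with C1q. In the heart C1q chains are known as products of resident and recruited macrophages, whereas C3, C4b and Serping1 are also made by fibroblasts and other stromal cells, and Cfd is best known from adipocytes.

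The chains of C1q are encoded side by side on mouse chromosome 4, with C1qc between C1qb and C1qa in the RefSeq annotation of GRCm38.p6. RefSeq promoter windows, each reaching 250 bases before and 50 after the annotated gene start, were found for 4 of the 7 genes. The windows of C1qb and C1qc are shown because these neighbouring genes rose together in loaded WT hearts, and that of C3 because C3 did not pass the threshold there; capitals mark motif matches. The C1qb window is on the minus strand at chr4:136886151-136886450, the C1qc window on the minus strand at chr4:136892865-136893164 and the C3 window on the minus strand at chr17:57228087-57228386.
C1qb: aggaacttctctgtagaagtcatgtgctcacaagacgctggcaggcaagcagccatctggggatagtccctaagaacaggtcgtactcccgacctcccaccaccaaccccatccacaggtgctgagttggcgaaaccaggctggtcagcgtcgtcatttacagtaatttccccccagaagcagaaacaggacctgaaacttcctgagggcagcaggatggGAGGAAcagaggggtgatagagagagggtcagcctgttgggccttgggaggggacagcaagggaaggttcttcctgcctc
C1qc: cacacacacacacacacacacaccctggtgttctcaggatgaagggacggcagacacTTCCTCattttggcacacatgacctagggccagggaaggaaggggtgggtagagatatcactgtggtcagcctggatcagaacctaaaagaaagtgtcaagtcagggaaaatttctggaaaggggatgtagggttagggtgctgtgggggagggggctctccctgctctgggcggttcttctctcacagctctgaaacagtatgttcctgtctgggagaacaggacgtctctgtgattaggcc
C3: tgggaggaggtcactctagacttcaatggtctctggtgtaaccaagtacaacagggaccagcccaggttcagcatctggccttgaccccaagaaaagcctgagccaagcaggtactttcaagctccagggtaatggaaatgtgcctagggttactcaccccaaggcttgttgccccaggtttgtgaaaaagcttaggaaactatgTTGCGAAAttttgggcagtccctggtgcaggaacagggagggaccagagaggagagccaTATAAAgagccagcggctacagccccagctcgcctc

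The letters GAGGAA, a core of the binding site of the myeloid factor PU.1, were searched on both strands together with 5 other motifs. They stood at base -30 of C1qb on the forward strand and began at base -193 of C1qc on the reverse strand, and 28.3% of all 32851 promoter windows of this length hold them. The C3 window held TTGCNNAA, a C/EBP site, at base -45 (10.8% of all windows) and TATAAA, the box bound by the general factor TFIID, at base 15 after the annotated start (13.6% of all windows). No match to GGAANNGAA (an Ets and IRF composite, 8.24% of all windows), GAAANNGAA (an interferon-stimulated element, 8.56%) or TTCNNNGAA (a gamma-activated site, 8.30%) lay in the 4 windows. The window of Cfd held none of the 6 motifs. These are matches of letters only.

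Levels are RPKM, read numbers scaled by gene length and by sequencing depth, as computed by the authors, so levels of different genes can be set beside each other per length. The read depth of the libraries is unknown. Library totals over the table ran between 202916.4 and 212396.3 RPKM. Pik3ca, the gene of the expressed subunit, averaged 106 ± 6.51 RPKM in caPI3Kalpha TAC (SD, n = 2), 155 ± 56.3 in caPI3Kalpha sham (SD, n = 2), 7.53 ± 1.72 in WT TAC (SD, n = 3) and 7.12 ± 1.36 in WT sham (SD, n = 4), and matched the labels. The libraries formed 2 sets, which no label names, taken here from the sign of the first principal component of all genes other than the 7 (52.1% of the variance). The first set holds all 4 caPI3Kalpha libraries, WT TAC 1 and WT sham 6, and the second holds WT TAC 17 and 19 and WT sham 7, 13 and 15. Set and transgene are therefore largely mixed, and only WT libraries stand in both sets. Summed over 7 cardiomyocyte markers, levels were 11947.7 to 12928.4 RPKM in WT TAC and 15178.9 to 16760 in the other 3 groups, and over 7 endothelial markers 174.1 to 185.5 RPKM in WT TAC and 143.3 to 159.1 in the others. Neither pair of ranges overlapped. In WT TAC against WT sham 1 of the 7 cardiomyocyte markers, Myh6, was lower past the threshold given below, and Actn2 stood at log2 0.16. Of the 7 endothelial markers 1, Pecam1, was higher. The median log2 changes were -0.23 and 0.09. In caPI3Kalpha TAC against WT TAC 1 cardiomyocyte marker was higher and 1 lower. The part of these shifts in the WT TAC values below was not tested. The library of caPI3Kalpha TAC 11 stood apart in atrial and red blood cell genes, with 20.8 RPKM of Myl7 and 314.4 RPKM of Hba-a1. Each comparison of the members that uses it is also described without it, with values for some members. Results of the other genes are given with it only. Changes are log2 differences of RPKM + 0.5 with their standard error (SE), from limma fitted to all genes and 4 groups, with Benjamini-Hochberg adjusted p over all 8987 genes and a threshold of 0.05.

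**Figure D1:**
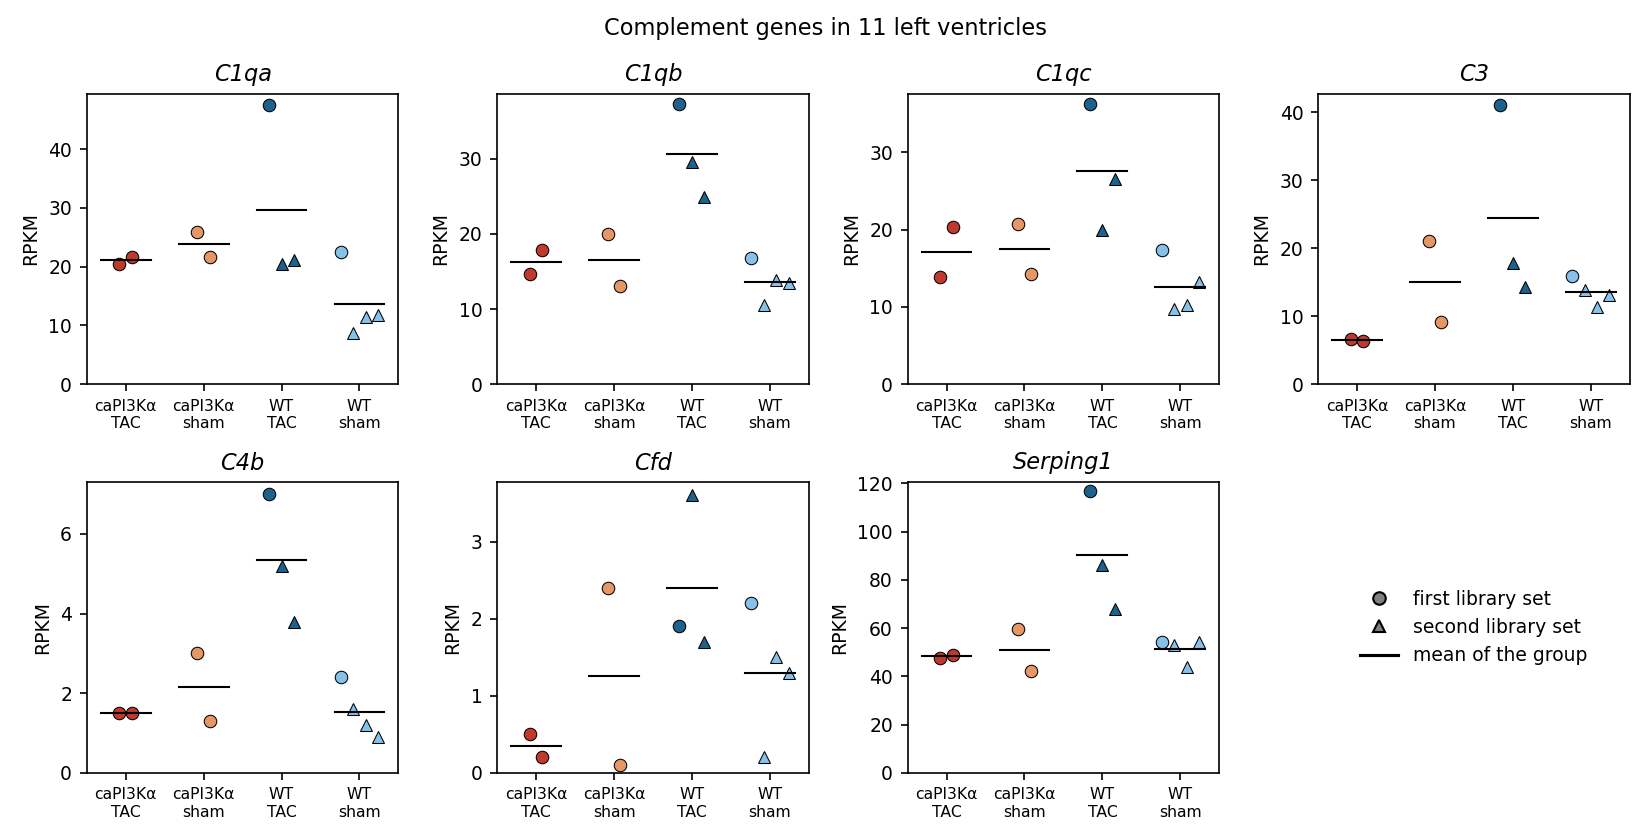
RPKM of each of the 7 genes by group, 1 point per heart, with circles for the first library set, triangles for the second and a line at the group mean. WT TAC 1 is the highest of the 11 libraries in 6 of the 7 genes, and both caPI3Kalpha TAC hearts read 6.3 and 6.7 RPKM for C3, the lowest values of that gene.

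WT TAC was set against WT sham to see what pressure load alone did. C1q chains, C4b and Serping1 were higher after TAC: 5 of the 7 genes rose past the threshold and none fell, where 13.6% of all genes tested rose. The median log2 change of the 7 was 1.07, Cfd included, which is in the table only through WT TAC 17. That of all genes was 0.17. Every WT TAC library lay above every WT sham library for 4 genes, C1qb, C1qc, C4b and Serping1, as it did for 18.9% of all genes.

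C1qb, the B chain of C1q, read 37.3, 29.5 and 24.9 RPKM in WT TAC 1, 17 and 19, against 16.8, 10.5, 13.8 and 13.4 RPKM in WT sham 6, 7, 13 and 15. All WT TAC hearts were above all WT sham hearts, with WT TAC 1 and WT sham 6 the highest of their groups. It rose 2.20-fold (log2 1.14, SE 0.20, limma adjusted p = 0.00383). C1qc, the C chain, read 36.3, 19.9 and 26.6 RPKM in WT TAC 1, 17 and 19, against 17.4, 9.8, 10.2 and 13.2 RPKM in WT sham 6, 7, 13 and 15. These groups did not overlap either, and C1qc rose 2.13-fold (log2 1.09, SE 0.25, limma adjusted p = 0.0149).

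C1qa, the A chain, had 47.5, 20.4 and 21.1 RPKM in WT TAC 1, 17 and 19, against 22.5, 8.7, 11.4 and 11.7 RPKM in WT sham 6, 7, 13 and 15. WT sham 6 lay above WT TAC 17 and 19, so the groups overlapped, although within each library set WT TAC was higher than WT sham. The fitted rise was 2.11-fold (log2 1.07, SE 0.33, limma adjusted p = 0.0476), close to the threshold. It passed in 1 of the 11 fits that left out a library, the one without WT sham 6 (log2 1.34, adjusted p = 0.00616), and in the other 10, without WT sham 7, 13 or 15, without any of the WT TAC or without any of the caPI3Kalpha libraries, the adjusted p lay between 0.0575 and 0.122. Without WT TAC 1 the log2 change was 0.68, and with a term for the library set it was 0.98, which passed (SE of 0.10, limma adjusted p = 5.83e-05). The sets were taken from these same data, and the term raised the calls over all genes as well, so that fit is not independent support. C1qa itself followed the sets, as its ratio to C1qb below shows. The rise of C1qa did not pass with quantile normalization (0.96, adjusted p = 0.104), centred on library medians (0.89, adjusted p = 0.110) or in a fit of these groups alone (adjusted p = 0.0986). Within the first set, with 1 heart per WT group, it was 1.06.

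The ratio of A chain to B chain separated the library sets. Per library, C1qa over C1qb was 1.22 to 1.40 in caPI3Kalpha TAC and 1.30 to 1.67 in caPI3Kalpha sham. It was 1.27 in WT TAC 1, against 0.69 and 0.85 in WT TAC 17 and 19, and 1.34 in WT sham 6, against 0.83 to 0.87 in the other WT sham hearts. In the first set it ran from 1.22 to 1.67 and in the second from 0.69 to 0.87, with no overlap, whichever operation the heart had. The ratio of C1qc to C1qb ran from 0.95 to 1.15 in the first set and from 0.68 to 1.07 in the second, ranges that overlap. What separates the sets was not tested, and comparisons of C1qa between caPI3Kalpha and WT hearts carry this difference.

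**Figure D2:**
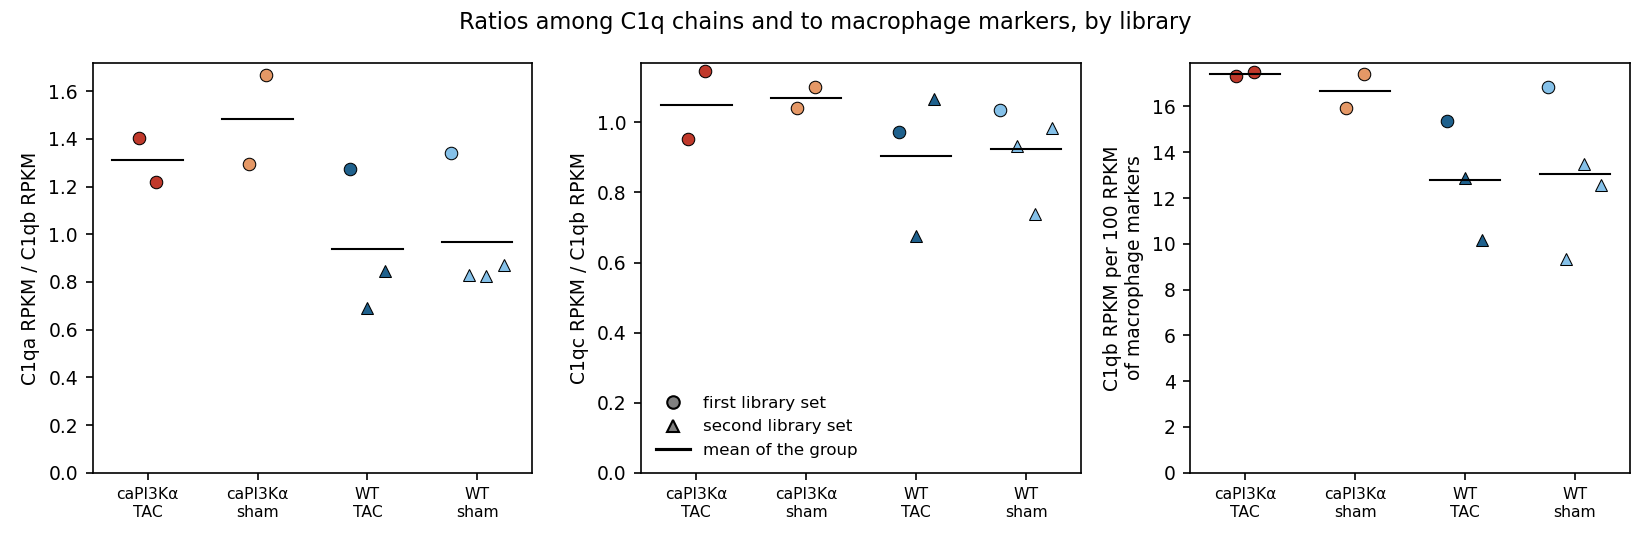
Ratios of RPKM within each library, by group: C1qa over C1qb (left), C1qc over C1qb (middle) and C1qb per 100 RPKM of 12 summed macrophage markers (right), with circles for the first library set, triangles for the second and a line at the group mean. The sets do not overlap in the left panel (1.22 to 1.67 against 0.69 to 0.87) or the right panel (15.4 to 17.5 against 9.33 to 13.5), and they do in the middle one. Lyz2 makes up most of the marker sum in every library.

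Most macrophage markers rose in WT TAC as the C1q chains did, but they did not follow C1q across the library sets. Of 15 markers listed, 12 had values and none was at 0 in any library. Emr1 and Ptprc reached 3 RPKM in WT TAC libraries alone, and of the other 10 markers 8 rose in WT TAC; the most abundant, Lyz2 (lysozyme), averaged 136 RPKM in WT TAC and 62.0 in WT sham and rose 2.19-fold (log2 1.13, limma adjusted p = 0.00149). Summed over the 12 markers, Emr1 and Ptprc included, levels were 84.2 to 101.8 RPKM in caPI3Kalpha TAC and 74.7 to 125.5 in caPI3Kalpha sham. They were 229.3 to 244.9 in WT TAC and 99.6 to 112.6 in WT sham, and Lyz2 made up most of the sum in every library. C1qb per 100 RPKM of these markers was 17.3 and 17.5 in caPI3Kalpha TAC, 15.9 and 17.4 in caPI3Kalpha sham, 10.2 to 15.4 in WT TAC and 9.33 to 16.9 in WT sham, so that C1qb relative to the markers overlapped between the WT groups. Summed C1q chains per 100 RPKM of these markers ran from 49.9 to 65.6 in the first library set. In the second set they ran from 25.8 to 35.9, with no overlap. WT sham 6 had the highest C1q sum of the WT sham hearts, 56.7 RPKM, and the lowest marker sum, 99.6. In whole ventricle, more cells of a type and more RNA per cell cannot be told apart, and the part of macrophage number in the C1q values was not tested.

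**Figure D3:**
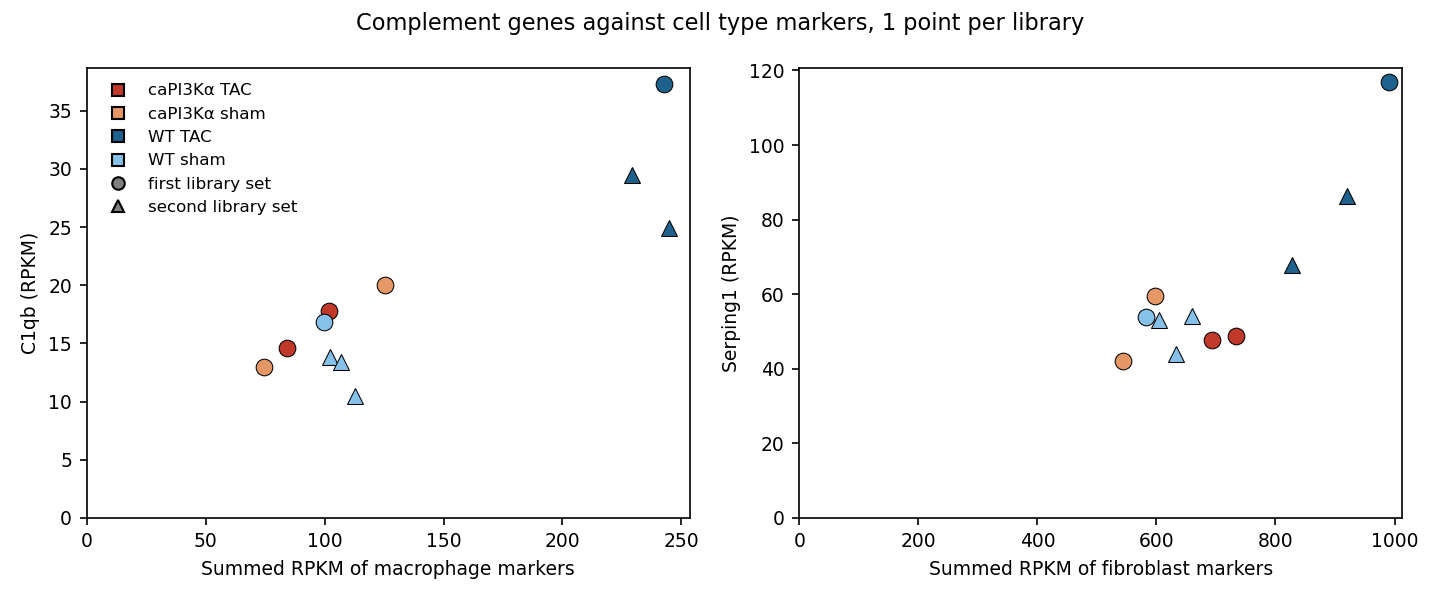
Left, C1qb against the summed RPKM of 12 macrophage markers; right, Serping1 against the summed RPKM of 9 fibroblast markers; each point is 1 library, coloured by group, with circles for the first library set and triangles for the second. The 3 WT TAC hearts stand apart on both axes of both panels, with macrophage sums of 229.3 to 244.9 RPKM and fibroblast sums of 827.3 to 990.6 RPKM. Dcn and Gsn make up most of the fibroblast sum in every library.

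C4b, one of the proteins cleaved after C1q binds, had the largest fitted change of the 7 in this comparison. It read 7.0, 5.2 and 3.8 RPKM in WT TAC 1, 17 and 19, against 2.4, 1.6, 1.2 and 0.9 RPKM in WT sham 6, 7, 13 and 15. The groups did not overlap, and the rise was 2.91-fold (log2 1.54, SE 0.30, limma adjusted p = 0.00647). C4b has a near-identical copy nearby, C4a, and how reads were shared between them is not given in the sources used here, so its level is uncertain. The table lists genes that reach 3 RPKM in at least 1 library, and C4b reached it in 4 libraries, the WT TAC hearts and caPI3Kalpha sham 5.

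Serping1, the C1 inhibitor gene, was the most abundant of the 7 in every library. It read 116.8, 86.3 and 67.9 RPKM in WT TAC 1, 17 and 19, against 54.0, 53.1, 43.9 and 54.2 RPKM in WT sham 6, 7, 13 and 15. The groups did not overlap, and Serping1 rose 1.72-fold (log2 0.78, SE 0.18, limma adjusted p = 0.0151). Without WT TAC 17 it did not pass (log2 0.80, adjusted p = 0.0535), nor with libraries centred on their medians (log2 0.59, adjusted p = 0.0596). Of 9 fibroblast markers 5 rose in WT TAC and 4 did not pass, among them Gsn at -0.47. Their summed level was 827.3 to 990.6 RPKM in WT TAC and 581.9 to 659.8 in WT sham, and none was at 0. The sum was 693.2 to 734.2 RPKM in caPI3Kalpha TAC, above every sham library, where Serping1 read 47.7 and 48.7 RPKM. Dcn and Gsn made up most of the sum in every library. Gsn read 297.0 and 305.8 RPKM in caPI3Kalpha TAC 11 and 211, against 205.0 to 266.4 in WT sham and 246.4 to 261.8 in caPI3Kalpha sham. Col1a1, Col1a2, Lum and Mmp2 also lay above every sham library there. Dcn, Pdgfra, Tcf21 and Dpt did not. The part of these markers in the result was not tested.

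C3, the component on which all complement pathways converge, did not pass in WT hearts. It read 41.0, 17.8 and 14.3 RPKM in WT TAC 1, 17 and 19, against 15.9, 13.8, 11.4 and 13.1 RPKM in WT sham 6, 7, 13 and 15. One heart, WT TAC 1, stood far above the rest, while WT TAC 19 lay below WT sham 6. The log2 change was 0.68 (95% interval -0.06 to 1.43, limma adjusted p = 0.193), and it was 0.24 without WT TAC 1. In the first library set the log2 difference was 1.34 and in the second 0.32.

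Cfd, the factor D gene, was close to the bottom of the table. It read 1.9, 3.6 and 1.7 RPKM in WT TAC 1, 17 and 19, against 2.2, 0.2, 1.5 and 1.3 RPKM in WT sham 6, 7, 13 and 15. The groups overlapped, the log2 change was 0.79 (95% interval -0.45 to 2.02, limma adjusted p = 0.371), and it stood at -0.17 within the first set. Cfd is in the table through 1 library alone, WT TAC 17, and was under 1 RPKM in 4 of 11. Of 8 white adipocyte markers listed, 3 had values (Plin4, Lipe and Pparg, which muscle also expresses), and their summed level was 42.7 to 59.3 RPKM in WT TAC and 57.0 to 71.5 in WT sham; the others were not analysed here.

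Of the 5 calls in WT hearts, 5 were found within the second library set alone, where 24.9% of all genes rose, and 0 within the first, which holds 1 heart of each WT group and takes its spread from the caPI3Kalpha libraries. The count was 3 without WT TAC 17 and 3 with libraries centred on their medians, and in every alternative run the log2 changes of C1qa, C1qb, C1qc, C3, C4b and Serping1 were positive.

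**Figure D4:**
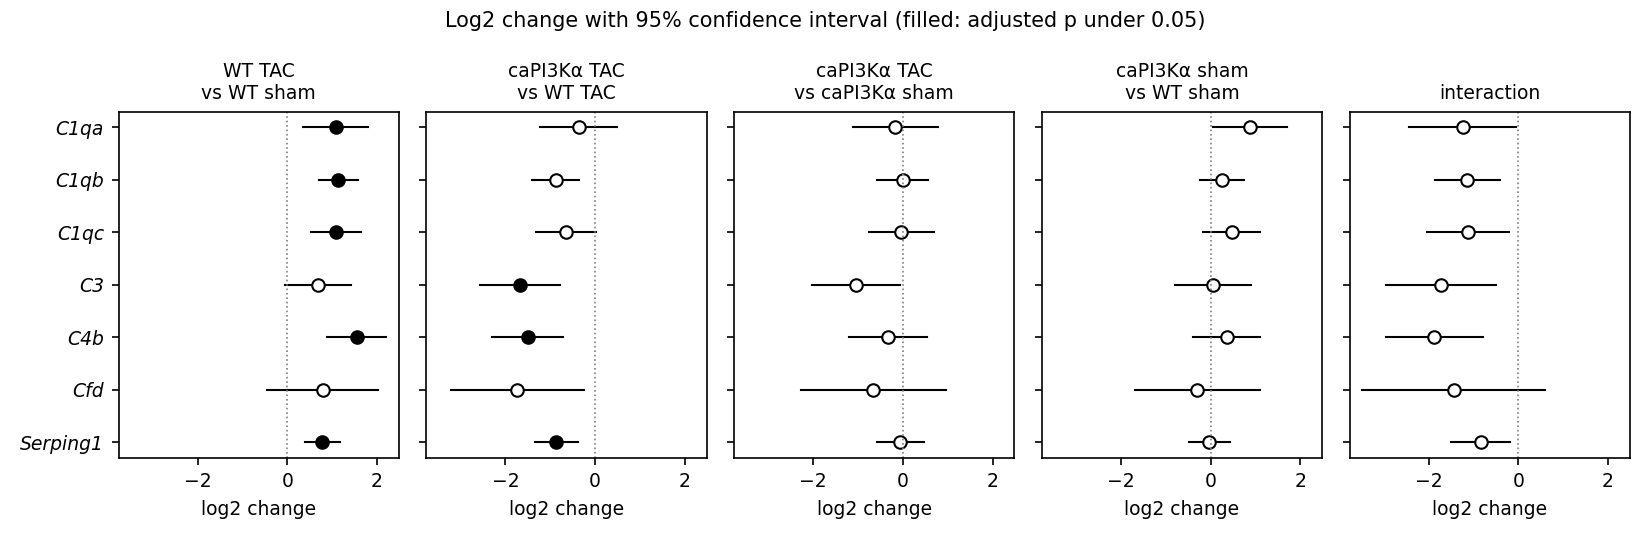
Log2 change of the 7 genes in 5 comparisons, with lines for the 95% confidence interval and filled points for an adjusted p under 0.05. In WT TAC against WT sham 5 points are filled to the right of 0, in caPI3Kalpha TAC against WT TAC 3 are filled to the left, and none is filled in the other 3 comparisons.

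The next comparison asks how loaded caPI3Kalpha hearts differ from loaded WT hearts. C3, C4b and Serping1 were lower in caPI3Kalpha TAC: 3 of the 7 genes passed, all downward, where 5.78% of all genes were lower. The log2 differences had a median of -0.88, Cfd included, against -0.18 for all genes. Both caPI3Kalpha TAC libraries lay below every WT TAC library for C1qb, C3, C4b and Serping1, and for Cfd, which is in the table only through WT TAC 17; the same held for 36.2% of all genes. The WT TAC libraries are the same as in the comparison with WT sham, so a high value in one of them enters both.

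C3 read 6.7 and 6.3 RPKM in caPI3Kalpha TAC 11 and 211, against 41.0, 17.8 and 14.3 RPKM in WT TAC 1, 17 and 19. The groups were well apart, and C3 was lower by a factor of 0.312 (log2 -1.68, SE 0.40, limma adjusted p = 0.0380). C4b read 1.5 RPKM in both caPI3Kalpha TAC hearts, against 7.0, 5.2 and 3.8 RPKM in WT TAC 1, 17 and 19 (log2 -1.51, SE 0.36, limma adjusted p = 0.0376). Serping1 read 47.7 and 48.7 RPKM in caPI3Kalpha TAC 11 and 211, against 116.8, 86.3 and 67.9 RPKM in WT TAC 1, 17 and 19 (log2 -0.86, SE 0.22, limma adjusted p = 0.0418).

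C1qb read 14.6 and 17.8 RPKM in caPI3Kalpha TAC 11 and 211, below all WT TAC hearts, and just missed the threshold (log2 -0.88, SE 0.24, limma adjusted p = 0.0506). C1qc read 13.9 and 20.4 RPKM in caPI3Kalpha TAC 11 and 211 and overlapped WT TAC, whose lowest heart had 19.9 (log2 -0.65, SE 0.30, limma adjusted p = 0.157). Its difference was -0.39 without caPI3Kalpha TAC 11 and -0.92 without caPI3Kalpha TAC 211. C1qa read 20.5 and 21.7 RPKM in caPI3Kalpha TAC 11 and 211, beside 20.4 and 21.1 in WT TAC 17 and 19 (log2 -0.37, SE 0.39, limma adjusted p = 0.512), and its difference was 0.02 without WT TAC 1. This comparison crosses the library sets for every gene, not for the A chain alone. Both caPI3Kalpha TAC libraries are in the first set, and WT TAC 17 and 19 are in the second. Against WT TAC 1, the loaded WT heart of the same set, the log2 difference was -1.15 for C1qa, -1.19 for C1qb and -1.08 for C1qc.

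Cfd read 0.5 and 0.2 RPKM in caPI3Kalpha TAC 11 and 211, against 1.9, 3.6 and 1.7 RPKM in WT TAC 1, 17 and 19 (log2 -1.74, SE 0.67, limma adjusted p = 0.108). It was the member with the widest interval, -3.21 to -0.26. Of the 10 macrophage markers not listed through WT TAC alone, 7 were lower in caPI3Kalpha TAC. Over all 12 markers, Emr1 and Ptprc included, summed levels were 84.2 to 101.8 RPKM in caPI3Kalpha TAC and 229.3 to 244.9 in WT TAC. Of 9 fibroblast markers 2 were lower and 1, Gsn, higher. Their part in the differences was not tested.

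These 3 calls were close to the threshold. None passed without WT sham 7 or 13, without WT TAC 17 or without either caPI3Kalpha TAC library, 1 passed without WT sham 15 and 1 without WT TAC 19. Without caPI3Kalpha TAC 11, the library rich in atrial and red blood cell genes, C3 stood at -1.72, C4b at -1.51 and Serping1 at -0.85, with adjusted p between 0.183 and 0.199, and C1qa stood at -0.33, C1qb at -0.74 and Cfd at -1.99. None passed with quantile normalization, with libraries centred on their medians or in a fit of these groups alone. With the set term 6 passed, all but Cfd, where 7.74% of all genes were lower; C3 then stood at -2.21 and C1qa at -1.11, and within the first set alone C3 stood at -2.57 and none passed.

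In caPI3Kalpha hearts, TAC was set against sham, with 2 libraries each. In limma none of the 7 genes passed, as 0% of all genes did, and 1 of the 7, C3, had an unadjusted p under 0.05, against 454 of all 8987. C1qb averaged 16.2 ± 2.26 RPKM in caPI3Kalpha TAC and 16.5 ± 4.95 in caPI3Kalpha sham (SD, n = 2 each), a log2 change of -0.001 with a 95% interval of -0.57 to 0.57. That interval lies below the log2 change fitted for C1qb in WT hearts, 1.14, though the difference between genotypes has its own test below. C3 read 6.7 and 6.3 RPKM in caPI3Kalpha TAC 11 and 211, against 21.0 and 9.2 RPKM in caPI3Kalpha sham 5 and 8. The groups did not overlap, and the log2 change was -1.05 (SE 0.44, limma adjusted p = 0.870); without caPI3Kalpha sham 5 it was -0.47, and without caPI3Kalpha TAC 11 it was -1.09. Without that library none of the 7 passed either, and C1qb stood at 0.14, C1qc at 0.23 and Serping1 at -0.04.

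Hearts of caPI3Kalpha sham 5 and 8 differed from each other in most members. Serping1 was 59.5 and 42.2 RPKM, C4b 3.0 and 1.3 RPKM, and Cfd 2.4 and 0.1 RPKM in caPI3Kalpha sham 5 and 8. This spread enters the intervals of TAC against sham: for Serping1 the interval ran from -0.58 to 0.47 and for C4b from -1.19 to 0.53. C1qa had 20.5 and 21.7 RPKM in caPI3Kalpha TAC 11 and 211, against 25.9 and 21.7 in caPI3Kalpha sham 5 and 8, and C1qc 13.9 and 20.4 against 20.8 and 14.3. Summed macrophage markers also differed, 125.5 and 74.7 RPKM in caPI3Kalpha sham 5 and 8.

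The interaction asks whether TAC acted differently in the 2 genotypes. All 7 interaction terms were negative, meaning a smaller rise or a larger fall in caPI3Kalpha hearts. Of all genes 30.3% had a positive term. The median of the 7 was -1.24, against -0.16 for all genes. These values include Cfd, whose listing through WT TAC 17 alone favoured a negative term. In limma none of the 7 passed, where 0.312% of all genes were called lower, and 6 of the 7 had an unadjusted p under 0.05, against 926 of all 8987. C4b stood at -1.87 (SE 0.49, adjusted p = 0.186), C3 at -1.73 (SE 0.56, adjusted p = 0.284), C1qb at -1.14 (SE 0.33, adjusted p = 0.226) and Serping1 at -0.84 (SE 0.30, adjusted p = 0.331). A set term raised the count to 5, where 5.92% of all genes were lower: C1qa (-1.15), C1qb (-1.10), C1qc (-1.07), C3 (-1.66) and C4b (-1.81). Without caPI3Kalpha TAC 11 none of the 7 passed, and the terms lay between -1.87 for C4b and -0.82 for Serping1. None of the 12 macrophage markers passed in limma, and their median term was -1.14. That median includes Emr1 and Ptprc, whose listing through WT TAC libraries alone favoured a negative term.

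Without load, caPI3Kalpha sham was set against WT sham. In limma none of the 7 genes passed, where 0.0111% of all genes did, and 1 of the 7, C1qa, had an unadjusted p under 0.05, against 1193 of all 8987. C1qa read 25.9 and 21.7 RPKM in caPI3Kalpha sham 5 and 8, against 22.5, 8.7, 11.4 and 11.7 RPKM in WT sham 6, 7, 13 and 15. The log2 difference was 0.87 (SE 0.37, adjusted p = 0.326), it was 1.14 and passed without WT sham 6 (adjusted p = 0.0341), and it was 0.03 with the set term. C1qb stood at 0.25 (95% interval -0.24 to 0.75), C3 at 0.05 (-0.80 to 0.89), C4b at 0.36 (-0.38 to 1.11) and Serping1 at -0.03 (-0.48 to 0.42). Without caPI3Kalpha sham 5, C1qb stood at -0.05, C3 at -0.53 and C4b at -0.12, so that their sign turned. It turned as well in the fit with library set, to -0.07 for C1qb, -0.55 for C3 and -0.15 for C4b. Cfd averaged 1.25 ± 1.63 RPKM in caPI3Kalpha sham (SD, n = 2) and 1.30 ± 0.83 in WT sham (SD, n = 4).

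Ordered by mean level, WT TAC came first for C1qa, C1qb, C1qc, C3, C4b and Serping1. It did so for Cfd too, which is in the table only through WT TAC 17. The share of all genes with WT TAC first was not counted. For C1qb the other groups followed at 16.5 RPKM in caPI3Kalpha sham, 16.2 in caPI3Kalpha TAC and 13.6 in WT sham, and their ranges overlapped. For Serping1 they followed at 51.3 in WT sham, 50.9 in caPI3Kalpha sham and 48.2 in caPI3Kalpha TAC, again with overlapping ranges. For C3 the order was 24.4 in WT TAC, 15.1 in caPI3Kalpha sham, 13.6 in WT sham and 6.5 in caPI3Kalpha TAC, and only caPI3Kalpha TAC lay outside the range of every other group. C4b had 5.33 in WT TAC, then 2.15 in caPI3Kalpha sham, 1.53 in WT sham and 1.5 in caPI3Kalpha TAC, the last 3 overlapping.

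Of 49 further complement genes, 17 had values and the others, among them the terminal components, were not analysed here. Of these 17, C3ar1, C5ar1 and Cd55 reached the listing minimum of 3 RPKM in WT TAC libraries alone, so that the listing favoured a high WT TAC value for them. Of the other 14, 5 rose in WT TAC and none fell, where 13.6% of all genes rose. Initiation genes among them were Masp1, a protease of the lectin pathway, at 1.28 (limma adjusted p = 0.00160), Colec12, a collectin scavenger receptor, at 1.05 (adjusted p = 0.00375), and C1ra, the protease bound to C1q, at 0.74 (adjusted p = 0.0120). C1s, its partner protease, read 9.7, 9.5 and 7.4 RPKM in WT TAC 1, 17 and 19, against 4.8, 7.0, 7.7 and 8.4 RPKM in WT sham 6, 7, 13 and 15, and did not pass (log2 0.34, adjusted p = 0.221).

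Among regulators, 1 soluble one rose. Clu, which encodes clusterin, a soluble inhibitor of the terminal complex, read 382.0, 285.0 and 215.1 RPKM in WT TAC 1, 17 and 19, against 105.9, 73.7, 78.6 and 98.5 RPKM in WT sham 6, 7, 13 and 15. It rose 3.23-fold (log2 1.69, limma adjusted p = 0.000414). Vtn, the gene of vitronectin, a soluble inhibitor of the same complex, stood at -0.45 (limma adjusted p = 0.0920). None of the 4 membrane regulators with values passed: Cd55 stood at 0.49 and Cd59a, whose reads may be shared with its copy Cd59b, at -0.41.

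Among receptors Cd93, once described as a C1q receptor and abundant in endothelium, rose in WT TAC at 0.83 (limma adjusted p = 0.00276). It was lower in caPI3Kalpha TAC than in WT TAC, at -0.65 (adjusted p = 0.0415), a comparison that uses the same WT TAC libraries. Of 7 endothelial markers 1, Pecam1, rose in WT TAC, where their median log2 change was 0.09. In caPI3Kalpha TAC against WT TAC 1 of the 7 was lower, with a median of -0.23. Their part was not tested. The receptors of the C3a and C5a fragments, C3ar1 and C5ar1, are in the table through WT TAC 17 alone, so their levels are given as a description. C3ar1 read 0.8 and 0.4 RPKM in caPI3Kalpha TAC 11 and 211, against 2.8, 3.7 and 2.5 RPKM in WT TAC 1, 17 and 19 and 1.0 to 1.5 RPKM in WT sham. C5ar1 read 0.6 and 1.3 RPKM in caPI3Kalpha TAC 11 and 211, against 2.6, 3.4 and 2.9 RPKM in WT TAC 1, 17 and 19 and 0.7 to 1.8 RPKM in WT sham. Of the 14 other genes 1, Cd93, was lower in caPI3Kalpha TAC and none was higher, where 5.78% of all genes were lower. None of the 17 passed in the other 3 comparisons in limma. Clu stood at -0.82 in caPI3Kalpha TAC against WT TAC (adjusted p = 0.0574) and at 0.61 in caPI3Kalpha TAC against caPI3Kalpha sham (adjusted p = 0.860). Against caPI3Kalpha sham, Masp1 stood at 0.83 and Colec12 at 0.76 (limma adjusted p = 0.534 and 0.604). There 11 of the 17 were positive, as were 51.7% of all genes. Masp1 read 9.6 and 10.1 RPKM in caPI3Kalpha TAC, against 8.2, 8.3 and 8.9 in WT TAC 1, 17 and 19. Against WT TAC 4 of the 17 were positive, C3ar1, C5ar1 and Cd55 counted among the 17, as were 35.3% of all genes.

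**Figure D5:**
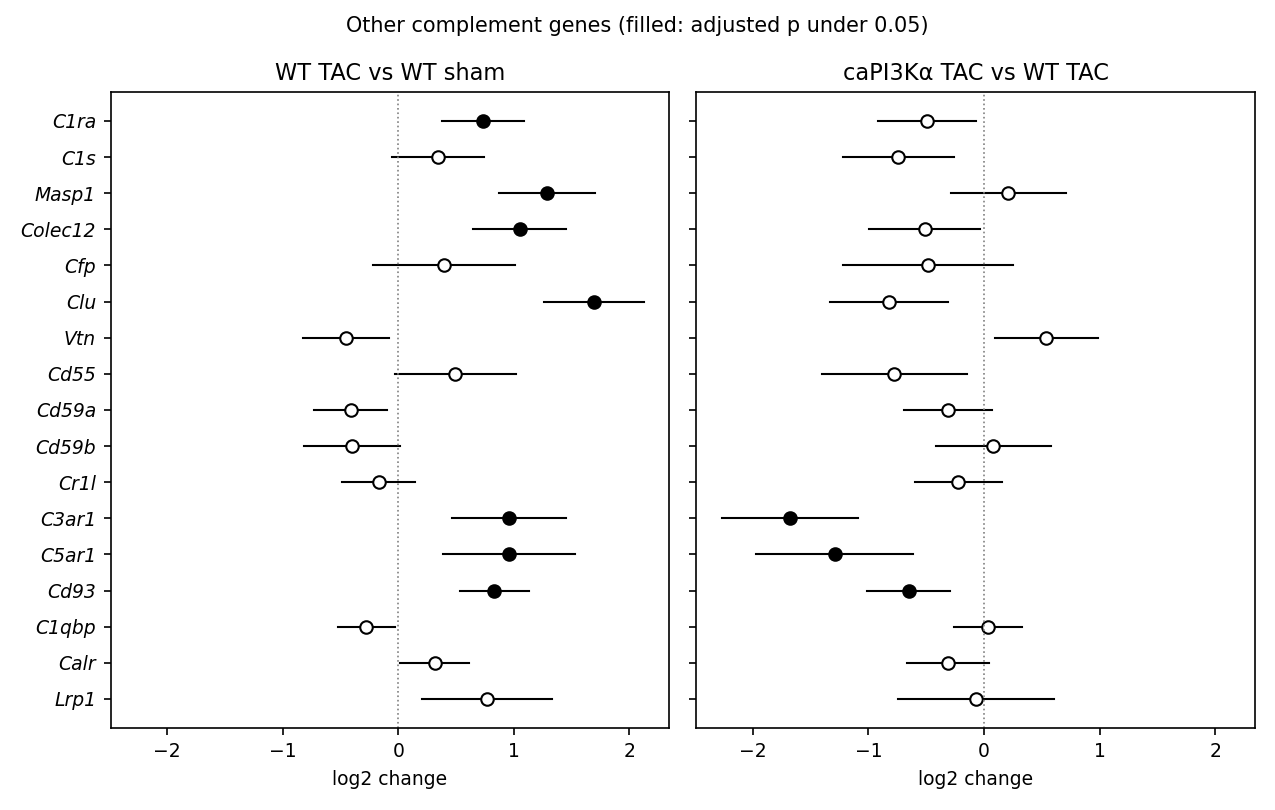
Log2 change of 17 other complement genes in WT TAC against WT sham (left) and in caPI3Kalpha TAC against WT TAC (right), with lines for the 95% confidence interval and filled points for an adjusted p under 0.05. Clu at 1.69 leads the filled points on the left; C3ar1, C5ar1 and Cd55 are in the table through WT TAC libraries alone, and without them 5 of 14 are filled on the left and 1 on the right. The panels share the WT TAC libraries.

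The genes closest to each member in pattern were taken by Pearson's r of log2(RPKM + 0.5) over the 11 libraries, which share groups and library sets, and r is given as a description. For C4b the closest was Serpina3n, which encodes a secreted serine protease inhibitor (r = 0.957), then Olfml3 (0.954) and Emp3 (0.950). For C3 they were Igf2 (r = 0.958), Hp, the haptoglobin gene (0.902), and Ehmt1 (0.899). C1qb was followed by Tmed3 (r = 0.977), Pld4 (0.969) and Timp1 (0.968), C1qc by Stab1, a scavenger receptor of macrophages and sinusoidal endothelium (0.957), BC037034 (0.949) and 5930416I19Rik (0.947), and Serping1 by Tagln (0.961), Lox (0.959) and Sfrp1 (0.959). C1qa, whose ratio to C1qb separated the library sets, was closest to Zmiz1 (r = 0.983), Cotl1 (0.982) and Crip1 (0.974), and Cfd to Hint1 (0.913), Car3 (0.9) and Thbd (0.890). No other C1q chain could enter these lists, since the 7 members were left out of them.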

How the data were processed

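Messenger RNA of 11 ventricles was sequenced from poly-A selected libraries with single-end reads, per the labels' protocols. The deposited table holds RPKM computed by the authors, to 1 decimal, for genes reaching 3 RPKM in at least 1 library, per the file headers. The submitters' processing notes name mm9, CASAVA 1.6, Bowtie and Partek 6.5 without saying what each did. Blank lines (261), an error line (1) and repeats (2) were removed, leaving 8987 genes. All columns matched a sample by name; for WT sham 15 the source name gives another animal number, and the title was used. The 16 miRNA libraries were not used.

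Log2(RPKM + 0.5) was fitted with limma 3.58.1 (eBayes with trend) in R 4.3.3, with 11 libraries in 4 groups. A minimum mean of 1 RPKM removed 0 genes. The labels name separate animals. P-values were two-sided and adjusted by the Benjamini-Hochberg method. The fit was tested on simulated data. Members and lists were chosen with earlier results of these data known. Named are all members, other complement genes past the threshold and 1 or 2 per role, the 3 closest genes to each member and abundant markers. Alternatives were other pseudocounts, scalings, filters, group subsets, library sets and leaving out each library. One listed gene is not reported here. Promoter letters are from RefSeq, GRCm38.p6.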

Additional observations from a re-analysis of the deposited data

Results flagged for a closer look

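Serping1 in WT sham 13, at 43.9 RPKM, stood apart from WT sham 6, 7 and 15, at 54.0, 53.1 and 54.2 RPKM, with a gap to the nearest of 0.893 of the group's range. By chance about 1 in 20 groups of this size is picked out in this way, and 7 were looked at.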

How the results depend on the processing

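Of the 665 alternative values for 35 changes of single members, 600 kept their side of the threshold, 53 no longer passed and 12 newly passed; 24 differed in sign from the planned value, none of them past the threshold in either fit. Of the 7 genes, the number past the threshold in WT TAC against WT sham was 5, and it was 3 centred on library medians, 0 within the first library set and between 3 and 5 when a library was left out. In caPI3Kalpha TAC against WT TAC it was 3, and it was 0 with quantile normalization, 0 centred on library medians, 0 in a fit of these groups alone, 6 with the set term, 0 within the first set and between 0 and 4 when a library was left out. The interaction had 5 with the set term in place of 0, and caPI3Kalpha sham against WT sham had between 0 and 1 when a library was left out. Centring moved the median of all genes from 0.17 to -0.02 in WT TAC against WT sham and from -0.18 to -0.01 in caPI3Kalpha TAC against WT TAC, and genes higher and lower in the first were then 561 and 610, in place of 1225 and 256. Of the genes in caPI3Kalpha TAC against WT TAC, 130 were then higher and 139 lower, in place of 67 and 519. Centred, C1qb stood at 0.95, C1qc at 0.90, C4b at 1.35 and Serping1 at 0.59 in WT hearts. The count over all genes in WT TAC against WT sham was 1481, and it was 3785 with the set term, 44 within the first set, 2836 within the second, 925 with quantile normalization and 890 in a fit of these groups alone. Where leaving out a caPI3Kalpha library left 1 in its group, that library was assumed to vary like the other groups. No paired analysis was possible because the messenger RNA groups share no animal number. Depth is unknown, so counting error could not be set apart for low genes such as Cfd and C4b.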
